A study of Homo sapiens with 27 samples.

Results

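The control cultures of a 21-day drug adaptation experiment were compared between their end and their start, to describe which functions changed in cells that received vehicle alone. The cells were of 92.1, an established line of uveal melanoma, the melanocytic tumor of the eye, that carries mutant GNAQ. They grew in RPMI with FBS and in DMSO, the vehicle of the FAK inhibitor VS-4718 (FAKi), and medium with treatment was renewed every 72 h. The experiment holds 27 mRNA libraries, and those used here were the 3 of DMSO at day 0 and the 3 of DMSO at day 21, chosen by treatment and day in the sample titles. No allele or inhibitor separated the groups. They differed in days in culture and in days of exposure to DMSO, and the design cannot tell these apart. One day 21 library, replicate 3, has a column name in which the day carries an additional digit, while its title gives day 21. Rows were restricted to those annotated as protein-coding, 19982 of 61533, and 14272 of them had at least 20 counts over the 6 libraries and were tested. All cells came from 1 line, and the labels give a replicate number without saying whether it counts separate cultures, so p-values measure the spread between these libraries, which may be technical.

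Most protein-coding genes serve functions that every cell shares. Ribosomal proteins build the cytosolic ribosome, and their transcripts are short and abundant. The respiratory chain and ATP synthase of mitochondria are put together from subunits encoded in the nucleus and a smaller set encoded on the mitochondrial chromosome, which is transcribed by its own polymerase. Melanocytic cells add the melanosome, the organelle in which melanin is made on a fibrillar matrix, and a group of lineage transcription factors led by MITF and SOX10. In GNAQ-mutant uveal melanoma the G protein alpha subunit Gq drives phospholipase C, protein kinase C and ERK on one side, and TRIO, FAK and YAP on the other.

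The day 21 libraries differed from the day 0 libraries in composition, and DMSO day 21 replicate 3 stood apart from its group. Total counts were from 12161994 to 18344770 at day 0 and 40189978, 19893568 and 20388413 at day 21. Mitochondrial rows took 17.0%, 17.9% and 18.8% of all counts at day 0 and 5.49%, 5.49% and 9.75% at day 21. Rows with a counted transcript under 1000 bases took between 5.66% and 6.18% of the non-mitochondrial protein-coding counts at day 0, and 12.6%, 12.6% and 7.67% at day 21. Over 18758 genes, the root mean square log2 difference was from 0.353 to 0.364 between day 0 libraries and 0.391 between day 21 replicates 1 and 2. Replicate 3 of day 21 differed from its own 2 replicates by 0.760 and 0.813 and from the day 0 libraries by 0.707 to 0.732, so it lay nearer to day 0 than to its group. Counts are therefore also given without it for most lists where they moved by over 1.5 times.

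**Figure D1:**
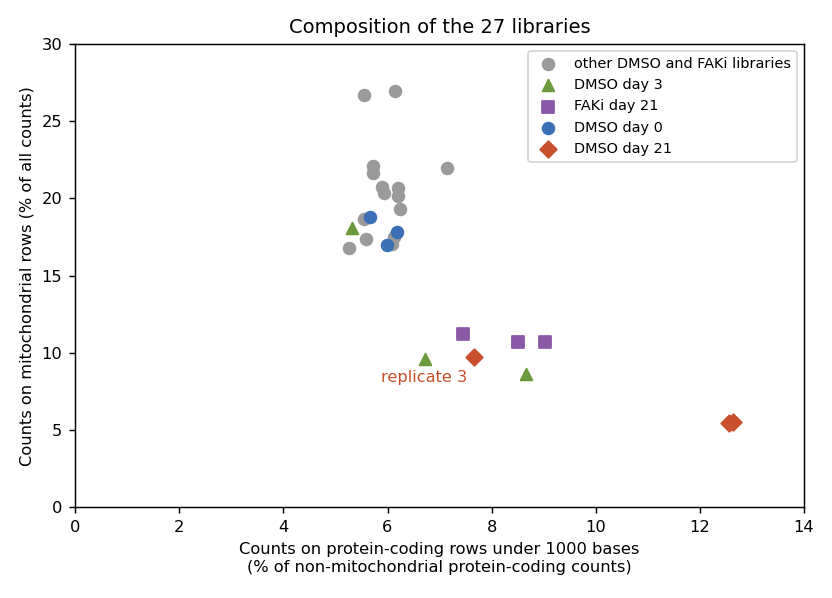
Share of counts on mitochondrial rows (% of all counts) against the share on protein-coding rows under 1000 bases (% of non-mitochondrial protein-coding counts) in each of the 27 libraries, 1 point per library. DMSO day 21 replicates 1 and 2 sit at 5.49% mitochondrial counts, and replicate 3, at 9.75%, lies with the FAKi day 21 libraries and with 2 of the 3 DMSO day 3 libraries.

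Of the 14272 protein-coding genes tested, 1359 were called higher at day 21 (9.52%) and 1312 lower (9.19%), where a call needs an adjusted p no higher than 0.05 together with a log2 fold change beyond 1 in either direction. The median log2 fold change was -0.04. By adjusted p of at most 0.05 alone, 6916 of the 14272 genes passed. Counts of list members at an unadjusted p under 0.05 are to be read against at least this number. The direction went with transcript length. Among 834 genes with a counted transcript under 1000 bases, 41.4% were called higher and 9.11% lower, and among 2708 genes of 6000 bases or more, 1.18% were called higher and 24.4% lower. Across genes, Spearman's correlation of the log2 fold change with length was -0.557 and with GC content 0.392, given as a description since genes are not independent. After each library was corrected for length and GC content by a loess curve, the correlation with length was -0.0227, and 667 genes were called higher (4.67%) and 578 lower (4.05%), of which 855 were also called without the correction. Without day 21 replicate 3, 2032 of 14143 genes were called higher (14.4%) and 2258 lower (16.0%). The part of RNA quality, library preparation and culture in this length dependence was not tested, and lists are read below against these shares. Where groups are said below not to overlap, this describes single genes. The share of such genes over all genes is not given.

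**Figure D2:**
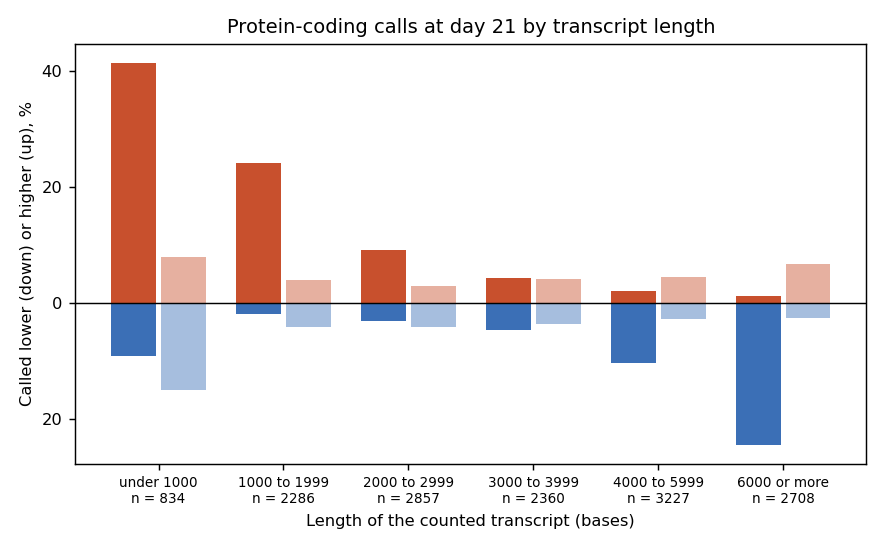
Protein-coding genes called higher (orange, upward) or lower (blue, downward) at day 21, in % of the genes of a length class, by length of the counted transcript in bases, with dark bars for the fit without correction and pale bars for the fit corrected for length and GC content. Calls run from mostly higher under 1000 bases (41.4%) to mostly lower from 6000 bases (24.4%) without correction, and with correction the calls lean the other way, at 67 higher and 125 lower under 1000 bases and 182 higher and 70 lower from 6000 bases.

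Cytosolic ribosomal protein genes had more members called higher than any other list, 60 of 83 tested, with a median log2 fold change of 1.38. RPL39, a protein of the large subunit, was at 157, 160.2 and 166 CPM in the day 0 libraries and 1183, 1171 and 548 CPM in those of day 21. RPS18, a protein of the small subunit, was at 271, 281 and 266 CPM in the day 0 libraries and 1599, 1531 and 855 CPM in those of day 21. In both genes the 3 day 21 libraries lay above all 3 day 0 libraries, with replicate 3 the lowest of its group. The log2 fold changes were 2.59 ± 0.29 (SE, n = 3 per group, adjusted p = 0.00121) and 2.29 ± 0.24 (adjusted p = 0.00103). RPS3A rose by a log2 fold change of 2.59 and RPL10 by 1.68. Among the smallest fold changes of the list were RPL26 at 0.11, RPL41 at 0.24 and RPL11 at 0.51, which were not called. With the length and GC correction 35 members were called higher (median 0.92) and without day 21 replicate 3 the count was 74 (median 1.61). Bulk libraries cannot tell a change in the number of cells from a change in RNA per cell. Ribosomal protein genes have many processed pseudogenes with near-identical sequence, and the treatment of multi-mapping reads is not stated, so single members are uncertain. Exons of genes on the opposite strand cover 24.1% of the RPS3A transcript and 8.95% of the RPL10 transcript, and the counting command names no strand option.

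The sequences before the start sites of RPS18 and RPS3A are shown because ribosomal protein promoters held a common motif more often than other promoters. RefSeq (GRCh38.p14) gave 250 bases before the start for 66 of the 83 members, and the ETS family core CCGGAAG, on either strand, was found in 21 of them (31.8%), against 1753 of 11070 protein-coding genes tested (15.8%). Among the 47 members with a sequence that were called, 15 held it. The last 150 bases before the start are given 5′ to 3′ on the strand of the gene, with the motif in capitals, for RPS18 at chr6:33271925-33272074 (plus strand) and RPS3A at chr4:151099478-151099627 (plus strand).
RPS18: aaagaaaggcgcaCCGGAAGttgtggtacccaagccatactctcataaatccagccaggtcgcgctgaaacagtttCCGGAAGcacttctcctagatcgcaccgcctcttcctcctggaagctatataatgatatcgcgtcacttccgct
RPS3A: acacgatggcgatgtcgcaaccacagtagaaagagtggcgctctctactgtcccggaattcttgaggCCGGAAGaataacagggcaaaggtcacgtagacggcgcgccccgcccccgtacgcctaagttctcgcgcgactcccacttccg
RPS18 held the core at 137 and 74 bases before the start, and RPS3A at 83 bases. A match of letters is a description and not a binding site.

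Subunits of oxidative phosphorylation split by the genome that encodes them. Of 78 nuclear-encoded members tested, 45 were called higher, with a median log2 fold change of 1.08. COX7C, a subunit of cytochrome c oxidase, was at 94.98, 101 and 87.4 CPM in the day 0 libraries and 424, 421 and 207 CPM in those of day 21. NDUFA4, also a subunit of that complex, was at 51.7, 44.6 and 50.8 CPM in the day 0 libraries and 148, 138 and 101 CPM in those of day 21. Day 21 was above day 0 in all libraries for both. Their log2 fold changes were 1.89 ± 0.26 (SE, adjusted p = 0.00239) and 1.39 ± 0.17 (adjusted p = 0.00162). ATP5MC2, of the membrane ring of ATP synthase, rose by 1.46, and COX5A, another cytochrome c oxidase subunit, by 1.65. The members called came from complex I (NDUFB9, NDUFS7), complex III (UQCRQ, UQCRC1), complex IV and ATP synthase (ATP5F1E, ATP5PO). NDUFS1, the largest subunit of complex I, had a log2 fold change of -0.22 and was not called. Corrected for length and GC content, 22 members were called higher (median 0.62), COX7C, NDUFA4, ATP5MC2 and COX5A among them, and without day 21 replicate 3 there were 57 (median 1.33). In the 250 bases before the start, the NRF1 core GCGCATGC was found on either strand in 12 of 64 members with a sequence (18.8%), against 546 of 11070 genes tested (4.93%), and 4 of the 39 called members with a sequence held it.

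The mitochondrially encoded subunits moved in the other direction, with 10 of 13 called lower and a median log2 fold change of -1.74. MT-ND1, a complex I subunit, was at 9956, 10602 and 11031 CPM in the day 0 libraries and 2413, 2366 and 4349 CPM in those of day 21. MT-ND6, the complex I subunit encoded on the opposite strand of the mitochondrial chromosome from the other members, was at 3381, 3489 and 3255 CPM in the day 0 libraries and 852, 1028 and 1221 CPM in those of day 21. MT-ATP8, an ATP synthase subunit whose gene overlaps MT-ATP6, was at 4958, 4883 and 4559 CPM in the day 0 libraries and 195, 189 and 730.1 CPM in those of day 21. In these genes every day 21 library lay below every day 0 library, with replicate 3 the nearest to day 0. Log2 fold changes were -1.79 ± 0.27 for MT-ND1 (SE, adjusted p = 0.00272), -1.71 ± 0.18 for MT-ND6 (adjusted p = 0.00103) and -3.69 ± 0.53 for MT-ATP8 (adjusted p = 0.00257). The fold was not the same over the chromosome. The members that were not called were MT-CO2 at -0.90, MT-CO3 at -0.54 and MT-ND3 at -0.47, while MT-ND4L fell by 2.85 and MT-ND5 by 2.15 on the log2 scale. With the length and GC correction all 13 were called lower (median -2.25), and without day 21 replicate 3 the count was 11. The counted transcripts of this list are short, with a median of 783 bases. Of all genes tested with a transcript under 1000 bases, 41.4% were called higher and 9.11% lower. The part of transcript length in this fall was not tested.

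**Figure D3:**
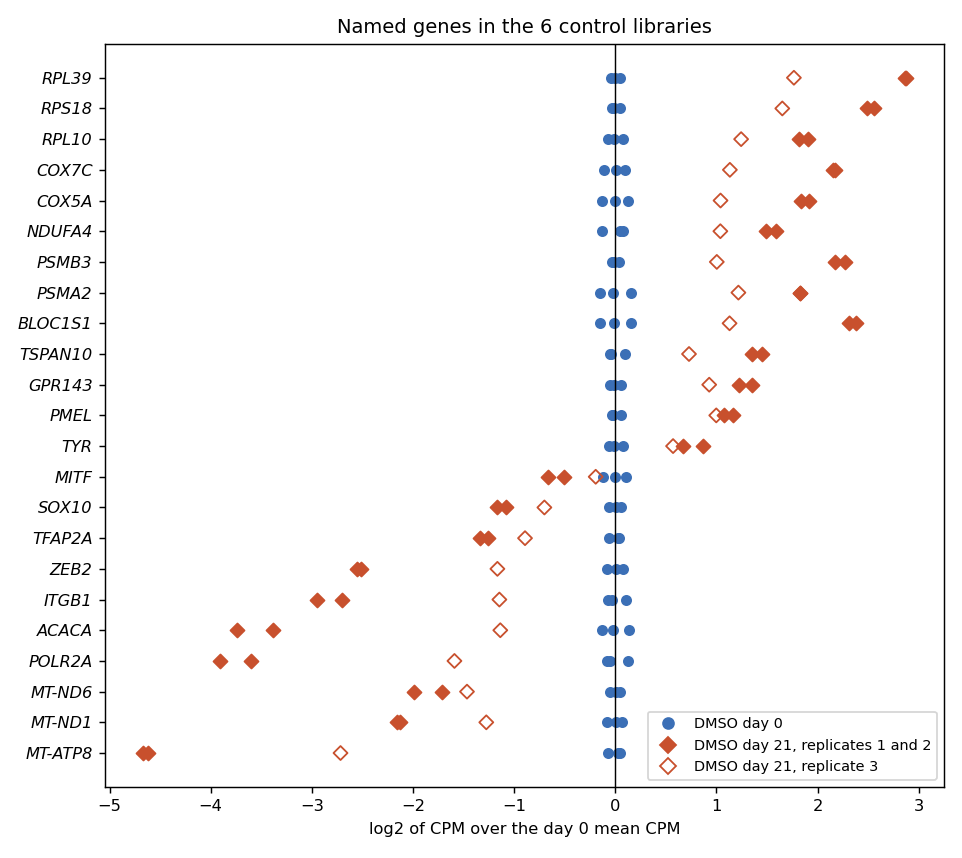
Log2 of CPM over the day 0 mean for 23 named genes, with 1 point per library, blue circles for DMSO day 0, filled orange diamonds for DMSO day 21 replicates 1 and 2, and open diamonds for replicate 3. The open diamonds lie between day 0 and the filled diamonds in most rows, and for PMEL all 3 diamonds lie close together.

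Proteasome subunits rose in part, with 11 of 37 members called higher and a median log2 fold change of 0.75. PSMB3, a subunit of the catalytic core, was at 37.5, 38.8 and 36.95 CPM in the day 0 libraries and 170.0, 182 and 75.7 CPM in those of day 21, a log2 fold change of 1.92 ± 0.30 (SE, adjusted p = 0.00294). PSMA2, of the outer ring of the core, was at 45.9, 40.8 and 37.2 CPM in the day 0 libraries and 146, 147 and 96.03 CPM in those of day 21, a log2 fold change of 1.65 ± 0.19 (adjusted p = 0.00141). No library of day 21 overlapped with day 0 in either gene. Among the 11 called members, 10 belong to the core particle and PSMD4, a ubiquitin receptor, to the regulatory particle. PSMB10, a catalytic subunit of the immunoproteasome, had the largest fold of the list, 2.07 on the log2 scale. Under the length and GC correction 6 members were called higher, and without day 21 replicate 3 there were 18. Exons of a neighboring gene on the same strand cover 34.3% of the counted PSMA2 transcript and 56.1% of that of PSMB10.

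Pigment genes of the melanosome were higher in part. Of 20 members 5 were called higher, namely PMEL, GPR143, TSPAN10, MLPH and BLOC1S1, and the median log2 fold change was 0.61. PMEL, whose fibrils form the melanosome matrix, was at 3103, 3117 and 3300.3 CPM in the day 0 libraries and 7089.6, 6665 and 6338 CPM in those of day 21. GPR143, the melanosomal receptor that is mutated in ocular albinism, was at 97.3, 104.8 and 100.2 CPM in the day 0 libraries and 256, 235 and 192 CPM in those of day 21. For PMEL and GPR143 the day 21 libraries all lay above day 0, and replicate 3 of day 21 lay close to its own group in PMEL. Their log2 fold changes were 1.08 ± 0.16 (SE, adjusted p = 0.00269) and 1.18 ± 0.14 (adjusted p = 0.00165). TSPAN10, a tetraspanin expressed in pigment cells, rose by 1.21, BLOC1S1, a subunit of a complex for lysosome-related organelles, by 2.04, and MLPH, the melanophilin that links melanosomes to myosin, by 1.14. MLPH was at 30.05, 31.9 and 30.9 CPM in the day 0 libraries and 90.02, 79.1 and 35.7 CPM in those of day 21, so that its rise rested on replicates 1 and 2. Same-strand exons of other genes cover 29.7% of the BLOC1S1 transcript.

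The enzymes of melanin synthesis did not pass the fold threshold. TYR, the tyrosinase that starts melanin synthesis, was at 141, 146 and 155 CPM in the day 0 libraries and 268, 233 and 219 CPM in those of day 21, above day 0 in each library, with a log2 fold change of 0.71 ± 0.13 (SE, adjusted p = 0.00471). TYRP1, its related protein, was at 5546, 5191 and 5306 CPM in the day 0 libraries and 3499, 3339.8 and 5874 CPM in those of day 21, and the groups overlapped because replicate 3 lay above all day 0 libraries (log2 fold change -0.34 ± 0.24, adjusted p = 0.277). DCT, which acts after TYR, was at 6.11, 4.78 and 6.32 CPM in the day 0 libraries and 3.804, 2.63 and 4.47 CPM in those of day 21 (log2 fold change -0.66 ± 0.24, adjusted p = 0.0549). MLANA, a melanosomal antigen, had 0.63, OCA2, an ion transporter, 0.60, SLC24A5, another transporter, -0.63, and MYO5A, the myosin that carries melanosomes, -0.84, none of them called. With the length and GC correction 3 members were called higher, MLPH, BLOC1S1 and BACE2, and PMEL (0.69, adjusted p = 0.00761) and GPR143 (0.64, adjusted p = 0.00215) stayed higher under a log2 of 1. Without day 21 replicate 3 there were 7 called higher and 1 lower, MYO5A.

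Promoters of the pigment genes are shown for the letters CATGTG, the core of the M-box that MITF binds. RefSeq gave 250 bases before the start for 16 of the 20 members, and 10 held the core on either strand (62.5%), against 629 of 11070 genes tested (5.68%). The core was found in 2 of the 4 called members that had a sequence, GPR143 and TSPAN10, and in TYR and TYRP1, which were not called. The last 150 bases are given as above, with the core or its reverse complement CACATG in capitals, for GPR143 at chrX:9765848-9765997 (minus strand), TSPAN10 at chr17:81642155-81642304 (plus strand), TYR at chr11:89177725-89177874 (plus strand) and TYRP1 at chr9:12693235-12693384 (plus strand).
GPR143: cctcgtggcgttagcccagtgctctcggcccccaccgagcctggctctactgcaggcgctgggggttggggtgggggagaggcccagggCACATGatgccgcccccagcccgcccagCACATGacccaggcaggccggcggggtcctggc
TSPAN10: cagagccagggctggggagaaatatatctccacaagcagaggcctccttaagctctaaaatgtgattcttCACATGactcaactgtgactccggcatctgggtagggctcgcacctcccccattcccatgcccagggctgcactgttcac
TYR: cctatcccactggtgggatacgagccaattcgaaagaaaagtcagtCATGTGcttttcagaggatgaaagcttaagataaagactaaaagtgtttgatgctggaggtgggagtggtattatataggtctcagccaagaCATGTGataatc
TYRP1: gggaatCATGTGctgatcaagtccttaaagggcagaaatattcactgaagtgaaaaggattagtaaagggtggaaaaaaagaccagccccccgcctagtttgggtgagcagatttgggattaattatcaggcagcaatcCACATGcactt
GPR143 held the core at 61 and 33 bases before the start, TSPAN10 at 80, TYR at 104 and 12, and TYRP1 at 144 and 11. Genes with the core thus stood among both the called and the uncalled members.

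Of 11 transcription factors of the melanocyte lineage tested, 4 were called lower and 7 were not called, with a median log2 fold change of -0.84. ZEB2, a zinc finger repressor of the neural crest and melanocytes, was at 127, 114 and 121 CPM in the day 0 libraries and 20.6, 21.1 and 53.9 CPM in those of day 21. TFAP2A, a neural crest factor that acts beside MITF, was at 443, 470.1 and 476 CPM in the day 0 libraries and 184, 193 and 249 CPM in those of day 21. Every day 21 library lay below day 0 in both, and replicate 3 was the highest of its group. The log2 fold changes were -1.93 ± 0.35 (SE, adjusted p = 0.0046) and -1.15 ± 0.15 (adjusted p = 0.00216). SOX5 fell by 1.43 and SOX9 by 1.41 on the log2 scale. SOX10, the factor that maintains melanocytic identity, was at 668, 702 and 728 CPM in the day 0 libraries and 330.0, 312 and 430.1 CPM in those of day 21, without overlap, and its log2 fold change of -0.97 ± 0.16 (adjusted p = 0.00349) fell just short of the fold threshold. MITF, the central regulator of pigment genes, was at 219.7, 187 and 204 CPM in the day 0 libraries and 128, 143 and 178 CPM in those of day 21, a log2 fold change of -0.44 ± 0.15 (adjusted p = 0.0436). SNAI2 (-0.78) and PAX3 (-0.66) were also under day 0 without a call, and FOXD3 (0.32) and IRF4 (0.07) were not. Under the length and GC correction 3 members were called lower, ZEB2, SOX9 and SOX10, with SOX10 at -1.35 and MITF at -0.0031. Without day 21 replicate 3 there were 6 calls lower, LEF1 and SOX10 among them.

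**Figure D4:**
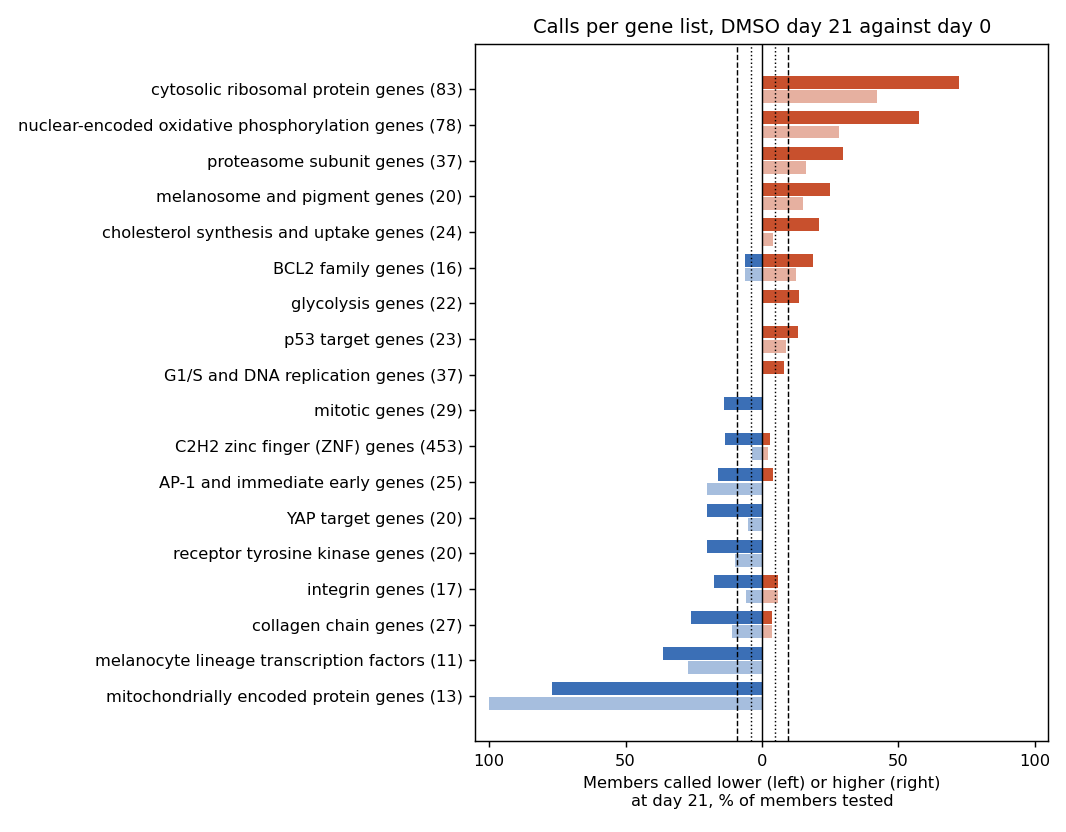
Members called higher (orange, to the right) or lower (blue, to the left) at day 21 in 18 gene lists, in % of the members tested (number in parentheses), with dark bars for the fit without correction and pale bars for the fit corrected for length and GC content. Lines mark the shares over all protein-coding genes, dashed without correction (9.52% higher, 9.19% lower) and dotted with it (4.67% and 4.05%), and the longest bars in both fits are those of the ribosomal, oxidative phosphorylation and mitochondrially encoded lists and the lineage factors.

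Several genes of transcription, RNA processing and metabolism fell steeply. POLR2A, the largest subunit of RNA polymerase II, was at 77.7, 75.7 and 87.8 CPM in the day 0 libraries and 5.36, 6.599 and 26.7 CPM in those of day 21. ACACA, the acetyl-CoA carboxylase that commits carbon to fatty acid synthesis, was at 48.5, 44.8 and 54.2 CPM in the day 0 libraries and 3.67, 4.697 and 22.4 CPM in those of day 21. The day 21 libraries lay below day 0 for both genes, and replicate 3 was several times higher than replicates 1 and 2. The log2 fold changes were -2.65 ± 0.54 (SE, adjusted p = 0.00681) and -2.27 ± 0.60 (adjusted p = 0.0165), and both were called with the length and GC correction, at -2.34 and -1.68. PNISR and RBM25, a pair of proteins of the spliceosome and nuclear speckle, had among the 5 smallest p of the genes called lower, with little spread within groups. PNISR was at 92.9, 102 and 102 CPM in the day 0 libraries and 44.9, 44.3 and 45.8 CPM in those of day 21, a log2 fold change of -1.14 ± 0.11 (adjusted p = 0.000851). RBM25 changed by -1.28 ± 0.13 (adjusted p = 0.000851). Corrected for length and GC content, PNISR (-0.57) and RBM25 (-0.57) were under the fold threshold. BDP1, a subunit of the RNA polymerase III initiation factor, fell by 2.74.

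Adhesion and matrix genes were mostly lower where they were called. Among 17 integrin genes tested 3 were called lower (17.6%, against 9.19% over all genes) and 1 higher (5.88%, against 9.52%). ITGB1, the beta chain shared by most matrix-binding integrins, was at 457, 404 and 415 CPM in the day 0 libraries and 65.3, 54.9 and 192 CPM in those of day 21. All day 21 values were under day 0, with a log2 fold change of -2.03 ± 0.43 (SE, adjusted p = 0.00757) that was -1.81 with the length and GC correction and -2.82 without day 21 replicate 3. ITGA2, a collagen receptor chain, fell by 1.36 and lost its call with the correction (-0.68). ITGAE, the chain that binds E-cadherin, was at 4.96, 5.57 and 4.5997 CPM in the day 0 libraries and 21.7, 21.9 and 8.72 CPM in those of day 21 and rose by 1.79. Counted collagen transcripts had a median of 6351 bases, and 24.4% of all genes of 6000 bases or more were called lower. Of 27 collagen chain genes 7 were called lower (25.9%) and 1 higher, with a median of -0.54. With the correction 3 were lower (11.1%, against 4.05% over all genes) and 1 higher. COL15A1 and COL24A1 were lower in both fits, at -1.29 and -1.95 without correction, and COL18A1, the source of endostatin, was higher in both, at 1.02. Opposite-strand exons cover 23.7% of the COL18A1 transcript. The counted transcripts of fibronectin, laminins and matricellular genes had a median of 6672 bases. In this list 4 of 25 were called lower (16%), FN1 and LAMC1 among them. None of these 4 was called with the correction. The 1 member called higher was SPP1, the secreted osteopontin, at 0.242, 0 and 0.261 CPM in the day 0 libraries and 4.13, 2.57 and 0.181 CPM in those of day 21, so that replicate 3 lay within the day 0 range. In the list of adhesion plaque genes, the proteins that link integrins to actin, edgeR called 0 of 22, with 11 at an unadjusted p under 0.05 and 0 called by DESeq2 (median -0.42). Leaving out day 21 replicate 3 gave 5 plaque genes called lower, and with the correction 1 called higher, PARVB. The same omission gave 9 collagen, 5 integrin and 6 fibronectin list genes called lower (33.3%, 29.4% and 24%, against 16.0% over all genes). The share among genes of 6000 bases or more is not given for that fit.

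Most genes of cell-cell contact and guidance were not called. Protocadherins had 6 of 55 called lower (10.9%) and 1 higher (1.82%) with a median of -0.72, and with the correction 1 lower and 1 higher. Of the 55, 47 had an unadjusted p under 0.05, where 6916 of all 14272 genes had an adjusted p of at most 0.05. Without day 21 replicate 3, 13 protocadherins were called lower (23.6%). Of 27 semaphorin, plexin and neuropilin genes 2 were called lower in both fits (7.41%), the secreted ligands SEMA3C and SEMA3D. Without day 21 replicate 3 there were 5 (18.5%). SEMA3C was at 15.2, 12.8 and 14.1 CPM in the day 0 libraries and 1.97, 2.29 and 7.77 CPM in those of day 21, below day 0 in all libraries, with a log2 fold change of -1.82 ± 0.47 (SE, adjusted p = 0.0149). SEMA3D changed by -2.07. Eph receptors and ephrins had 2 of 18 called higher (EPHA1, EFNA4) and 2 lower (EPHA5, EFNB2), 11.1% each, and none was called with the correction. Among cadherins 1 of 9 was called lower (11.1%), CDH19 at -1.06, which lost its call with the correction (-0.39). Potassium channels had 2 of 47 called higher and 2 lower (4.26% each), KCNJ14 at 1.04 among those higher. Without day 21 replicate 3 there were 6 higher (12.8%) and 7 lower (14.9%). Opposite-strand exons cover 36.3% of the EFNB2 transcript and 26% of that of KCNJ14.

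Of 25 genes of the pathway that mutant GNAQ drives, 21 were not called. GNAQ itself was at 42.3, 40.5 and 42.5 CPM in the day 0 libraries and 29.97, 34.2 and 40.1 CPM in those of day 21. The day 21 values lay below day 0, the log2 fold change was -0.27 ± 0.14 (SE, adjusted p = 0.151), and it was 0.42 with the length and GC correction. PTK2, which encodes FAK, was at 160.0, 149 and 155 CPM in the day 0 libraries and 101, 99.6 and 135 CPM in those of day 21, lower in each day 21 library, with a log2 fold change of -0.47 ± 0.15 (adjusted p = 0.0322) that did not reach the fold threshold and was -0.06 with the correction. In this Gq pathway list 3 were called lower (12%, against 9.19% over all genes) and 1 higher (4%, against 9.52%). Its counted transcripts had a median of 5405 bases, in a length class with 10.3% called lower. TRIO, a guanine nucleotide exchange factor that acts downstream of Gq, fell by 1.49, PLCB1, a phospholipase C that Gq activates, by 1.18, and DGKH, a diacylglycerol kinase, by 1.18, while RGS10, which ends G protein signaling, rose by 1.23. All 4 lost their call with the correction. Without day 21 replicate 3 there were 7 called lower (28%, against 16.0% over all genes) and 1 higher (4%, against 14.4%).

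Targets and feedback genes of these pathways gave calls in both directions, more of them lower. Over all genes 9.19% were called lower, 4.05% with the correction and 16.0% without day 21 replicate 3. AP-1 genes were at 16%, 20% and 28%, and ERK feedback genes at 5.88%, 5.88% and 35.3%. YAP targets were at 20%, 5% and 45%, and receptor tyrosine kinases at 20%, 10% and 20%. YAP and kinase transcripts had median lengths of 5190 and 5658.5 bases, in a class with 10.3% called lower. In the list of AP-1 and immediate early genes 4 of 25 were called lower and 1 higher, with the length and GC correction 5 were lower, and without day 21 replicate 3 there were 7 lower and 1 higher. EGR1, a transcription factor induced by ERK, was at 15.4, 20.5 and 17.7 CPM in the day 0 libraries and 4.87, 3.36 and 9.62 CPM in those of day 21. Its day 21 libraries lay below day 0, at a log2 fold change of -1.58 ± 0.34 (SE, adjusted p = 0.00803). KLF10 fell by 1.37, NR4A2 by 1.18, and JUND was the member called higher, at 1.15, where its corrected value was 0.29. Among 17 ERK feedback genes 1 was called lower, SPRED2, an inhibitor of RAS signaling, at 61.4, 57.8 and 63.6 CPM in the day 0 libraries and 18.1, 16.9 and 38.6 CPM in those of day 21, a log2 fold change of -1.31 ± 0.30 (adjusted p = 0.00914). Without day 21 replicate 3 there were 6 called lower, SPRY1, SPRY4 and ETV1 among them. YAP targets had 4 of 20 called lower (median -0.69), ASAP1, CRIM1, DOCK5 and TGFB2. ASAP1, an ARF GTPase-activating protein, fell by 1.63 and was the 1 member called with the correction. Without day 21 replicate 3 the count was 9. Receptor tyrosine kinases had 4 of 20 called lower, DDR1, DDR2, ERBB4 and ROR1, and DDR1 and ROR1 were called with the correction. In the TGF-beta and BMP list ID1 was called higher (1.06) and TGFB2 lower (-2.26) of 23, and in the Notch list DLL3 (1.29) and HES4 (1.66) were called higher and NOTCH2 (-1.27) lower of 14. None of these 5 was called with the correction. Same-strand exons of other genes cover 23.4% of the TGFB2 transcript. In the Wnt target list edgeR called 0 of 11, with 6 at an unadjusted p under 0.05 and 0 called by DESeq2, while 4 were called lower without day 21 replicate 3 and 1 higher, DKK3, with the correction. For actin and SRF targets edgeR called 0 of 16, with 12 at an unadjusted p under 0.05 and 0 called by DESeq2, and without day 21 replicate 3 there were 1 higher and 1 lower. That omission also gave 2 higher and 3 lower in the TGF-beta list and 3 higher and 3 lower in the Notch list.

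Cell cycle genes gave few calls, and no member of the mitotic or the G1/S list was called with the length and GC correction. Of 29 mitotic genes 4 were called lower, ASPM (-1.12), CENPE (-1.15), MKI67 (-1.09) and TOP2A (-1.08), and the median over the list was -0.20, while without day 21 replicate 3 there were 5 lower and 3 higher. MKI67, the proliferation antigen, was at 69.95, 64.6 and 88.9 CPM in the day 0 libraries and 30.6, 34.7 and 40.1 CPM in those of day 21. Of 37 G1/S and DNA replication genes 3 were called higher, the transcription factor E2F1 (1.01), the licensing factor CDT1 (1.15) and thymidine kinase TK1 (1.48), with a median of 0.24, a share of 8.11% against 9.52% over all genes. Without day 21 replicate 3 there were 5 G1/S genes called higher (13.5%, against 14.4% over all genes). TK1 was at 21.6, 22.5 and 22.2 CPM in the day 0 libraries and 71.6, 74.8 and 38.2 CPM in those of day 21. In both genes the groups did not overlap. The counted transcripts of the 4 mitotic genes called are long, 12687 bases for MKI67, and that of TK1 has 1418 bases. CDKN1C, a CDK inhibitor, was the 1 of 9 CDK inhibitor and D cyclin genes called, at 1.48, and lost its call with the correction (0.77). Replication-dependent histones had 1 of 22 called higher, H1-2, with the correction 2 lower, and without day 21 replicate 3 there were 3 higher.

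Apoptosis and p53 target genes included a few calls that stood with the correction. BCL2 family genes had 18.8% called higher and p53 targets 13%, against 9.52% over all genes. With the correction these shares were 12.5% and 8.7%, against 4.67%. They were 31.2% and 21.7% without day 21 replicate 3, against 14.4%. Of 16 BCL2 family genes 3 were called higher and 1 lower, and without day 21 replicate 3 there were 5 higher and 3 lower. BID, which carries the death receptor signal to mitochondria, was at 15.4, 15.7 and 15.7 CPM in the day 0 libraries and 41.3, 42.6 and 27.3 CPM in those of day 21, a log2 fold change of 1.25 ± 0.19 (SE, adjusted p = 0.00271) and 1.07 with the correction. PMAIP1, which encodes the BH3-only protein NOXA, was at 49.5, 48.02 and 45.6 CPM in the day 0 libraries and 15.8, 20.3 and 33.6 CPM in those of day 21 and fell by 1.04, with -1.18 after correction. Groups were separate in both. BCL2A1, an anti-apoptotic target of MITF, had 0 counts in all day 0 libraries and 28 over day 21, which is at least 5.87-fold higher against a floor of 3 counts over the day 0 group. BAD rose by 1.68 and lost its call with the correction (0.69), and opposite-strand exons cover 32.8% of its transcript. Among 23 p53 targets PHLDA3, FDXR and TP53I3 were called higher, and without day 21 replicate 3 there were 5 higher and 1 lower. PHLDA3, an inhibitor of AKT, was at 15.7, 16.01 and 15.2 CPM in the day 0 libraries and 56.03, 57.1 and 31.5 CPM in those of day 21, with 1.63 ± 0.23 and a corrected value of 1.29. Same-strand exons of other genes cover 21.8% of its transcript.

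Metabolic genes outside the mitochondrion changed in small groups. Of 24 cholesterol synthesis and uptake genes 5 were called higher, ACAT2, PMVK, MVD, NSDHL and EBP, with a median over the list of 0.28. ACAT2, which forms acetoacetyl-CoA at the head of the pathway, was at 11.7, 9.79 and 10.9 CPM in the day 0 libraries and 40.5, 46.1 and 22.2 CPM in those of day 21, a log2 fold change of 1.74 ± 0.26 (SE, adjusted p = 0.00276), and was the 1 member called with the correction. The list had 8 called higher without day 21 replicate 3. Opposite-strand exons cover 36.3% of its transcript. Fatty acid synthesis had ACACA and ACSL3, an acyl-CoA synthetase, called lower of 11, and ACSL3 lost its call with the correction (-0.54). Of 22 glycolysis genes GAPDH (1.04), TPI1 (1.16) and LDHB (1.21) were called higher, and none with the correction. Opposite-strand exons cover 32.8% of the GAPDH transcript and same-strand exons of other genes 64.6% of that of LDHB. Lysosome and autophagy genes had 4 of 32 called higher, of which GLA, the alpha-galactosidase, was called in both fits at 1.06 and 1.30.

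Stress and immune genes gave isolated calls. Among 21 chaperone and unfolded protein response genes SDF2L1, an endoplasmic reticulum chaperone component, was at 7.98, 8.52 and 7.58 CPM in the day 0 libraries and 42.8, 44.01 and 19.2 CPM in those of day 21, separate between groups, with a log2 fold change of 2.14 ± 0.30 (SE, adjusted p = 0.00248) and 1.09 with the correction. CRELD2 was called higher and ERN1 lower there, neither of them with the correction, and without day 21 replicate 3 there were 2 higher and 4 lower. Of 29 integrated stress response genes DDIT3 (1.00) and NUPR1 (1.04) were called higher and ALDH1L2 (-1.60) lower, of which NUPR1 was called with the correction. In the heat shock list of 18, CHORDC1, a co-chaperone, fell by 1.35, with -1.17 after correction, and HSPB1 rose by 1.25 and was not called with the correction (0.18). That list had 2 higher and 2 lower without day 21 replicate 3. NRF2 targets had 3 of 19 called higher, FTL, OSGIN1 and AKR1C2, and FTL (0.35) and OSGIN1 (0.37) lost their call with the correction, while without day 21 replicate 3 there were 5. MT1G, a metallothionein, had 0 counts in all day 0 libraries and 28 over day 21, at least 6.94-fold higher against the same floor, and ATP7A, the copper exporter, fell by 1.42 and was not called with the correction (-0.65). Neither was MT1G, and without day 21 replicate 3 that list of 7 had 3 higher and 3 lower. Of 15 genes of MHC class I presentation PSMB10, HLA-B (1.29) and HLA-F (1.11) were called higher and TAPBP, which encodes tapasin, lower (-1.06), and HLA-B (0.60) and HLA-F (0.49) lost their call with the correction. CIITA, the master regulator of MHC class II, was at 10.6, 12.02 and 11.5 CPM in the day 0 libraries and 31.6, 35.2 and 19.9 CPM in those of day 21, with 1.35 ± 0.22 on the log2 scale (adjusted p = 0.00322) and 2.24 with the correction, on a counted transcript of 16022 bases. Interferon-stimulated genes had 4 of 29 called higher (IFITM1, IRF7, IFI6, ISG15) and 2 lower (SAMD9, SAMD9L), none with the correction, and 5 higher and 3 lower without day 21 replicate 3. Opposite-strand exons cover between 23.7% and 40.5% of the transcripts of HLA-B, HLA-F, TAPBP and DDIT3, and same-strand exons of other genes cover 41.6% of that of IFITM1, so these values are uncertain. In the NF-kB and cytokine list edgeR called 0 of 11, with 3 at an unadjusted p under 0.05 and 0 called by DESeq2.

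Zinc finger genes of the ZNF family, most of which encode DNA-binding repressors, were the largest list. Of 453 members tested 61 were called lower (13.5%, against 9.19% over all genes) and 13 higher (2.87%, against 9.52%), with a median of -0.26. ZNF841 was at 10.6, 10.03 and 14.8 CPM in the day 0 libraries and 4.63, 4.25 and 5.104 CPM in those of day 21, a log2 fold change of -1.34 ± 0.20 (SE, adjusted p = 0.00278). ZNF525 was at 7.01, 7.49 and 8.68 CPM in the day 0 libraries and 30.3, 27.5 and 21.05 CPM in those of day 21, with a change of 1.77 ± 0.18 (adjusted p = 0.000976). Neither overlapped between groups. With the length and GC correction 17 members were called lower (3.75%, against 4.05% over all genes) and 10 higher (median -0.07), ZNF841 and ZNF525 among them, and without day 21 replicate 3 there were 99 lower and 22 higher. Remaining lists had 1 or 2 calls each: BOP1 and FBL of 20 ribosome biogenesis genes rose, ANKRD37 of 17 hypoxia-responsive genes rose (63% of its transcript is shared with opposite-strand exons), PER3 of 16 clock genes fell, KLF9 of 9 glucocorticoid-responsive genes fell, and SATB1 and ROBO1 of 17 uveal melanoma driver and class signature genes fell. SATB1, a chromatin organizer, was the member of these called with the correction, at -1.70 and -1.06. In the fit without day 21 replicate 3 the clock genes had 1 higher and 3 lower, the glucocorticoid list 3 lower and the hypoxia list 1 higher and 2 lower.

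The largest changes outside the lists fell on genes of varied function. LMNTD1, a protein with a lamin tail domain, was at 1.995, 2.79 and 2.35 CPM in the day 0 libraries and 42.5, 43.4 and 18.2 CPM in those of day 21. MFSD2B, a sphingosine-1-phosphate exporter, was at 3.45, 3.504 and 2.72 CPM in the day 0 libraries and 38.5, 44.6 and 20.96 CPM in those of day 21. Day 21 was above day 0 in each library of both, which was a condition for naming the largest rises and falls. The log2 fold changes were 3.87 ± 0.36 (SE, adjusted p = 0.000709) and 3.43 ± 0.30 (adjusted p = 0.000564). DSE, the epimerase of dermatan sulfate, rose by 2.67, C4orf48 by 3.17, TMEM160 by 2.75 and SH3D19 by 2.47. MTRNR2L10, a nuclear copy of the mitochondrial large ribosomal RNA, had the smallest p of all genes called higher and was at 0.786, 1.04 and 1.098 CPM in the day 0 libraries and 11.2, 9.003 and 10.7 CPM in those of day 21, where replicate 3 did not stand apart. Reads of the mitochondrial gene itself may be counted there, as may reads of RPS27A on RPS27AP5 (3.42), reads of PPIA on PPIAL4C (2.30) and reads of a near-identical copy on BOLA2 (2.46). All of these rises were called in both fits and without day 21 replicate 3. Opposite-strand exons cover 52.1% of the SH3D19 transcript and 29.1% of that of DSE. Same-strand exons of other genes cover 32.3% of the DSE transcript and 19.5% of that of LMNTD1.

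Among the largest falls, 5 of 12 rows have an Ensembl ID without a symbol, and exons of other genes on the same strand cover between 95.5% and 100% of each of them, so their counts cannot be told apart from those of these genes. NCR3LG1, the ligand of the natural killer receptor NKp30, was at 18.3, 19.3 and 24.5 CPM in the day 0 libraries and 0.411, 0.895 and 6.64 CPM in those of day 21, a log2 fold change of -3.00 ± 0.78 (SE, adjusted p = 0.016), and replicate 3 lay between the other day 21 libraries and day 0. EYS, a matrix protein of photoreceptors, was at 5.99, 6.53 and 7.74 CPM in the day 0 libraries and 0.575, 0.336 and 1.04 CPM in those of day 21 and fell by 3.36, with opposite-strand exons over 36% of its transcript. MEIOC, a factor of meiosis, fell by 2.17, and opposite-strand exons cover 45.9% of its transcript. TIPIN, of the replication fork protection complex, had one of the 5 smallest p among genes called higher, at 3.02, 2.31 and 2.404 CPM in the day 0 libraries and 13.4, 14.4 and 11.2 CPM in those of day 21, and same-strand exons of a neighboring gene cover 79.4% of its transcript.

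The libraries taken between these days place the day 21 values in a course. Values here are medians over members of the log2 CPM minus the day 0 mean, in a scaling over all 27 libraries, and the day 0 libraries are shared by all of them. The cytosolic ribosomal protein genes were at 1.66, 1.60 and 0.59 in the day 21 DMSO libraries, between 0.06 and 0.20 at day 7 and between -0.21 and 0.23 at day 14. Day 3 was split, at -0.28, 0.33 and 0.86 for replicates 1, 2 and 3. The mitochondrially encoded protein genes were at -2.08, -2.05 and -1.25 at day 21, between 0.60 and 0.85 at day 14, near 0 in day 3 replicate 1, and at -1.26 and -1.37 in day 3 replicates 2 and 3. The melanocyte lineage transcription factors followed that order, with -1.05, -1.06 and -0.63 at day 21, -0.38 and -0.84 in day 3 replicates 2 and 3, and between -0.088 and 0.28 at day 14. Thus 2 day 3 libraries shared the shift of day 21 in these lists, and the libraries of days 7 and 14 did not. The FAKi libraries of day 21 lay on the same side, between 0.39 and 0.80 for ribosomal protein genes and between -1.05 and -0.91 for mitochondrially encoded genes.

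The melanosome and pigment genes had another course. Their median lay between 0.077 and 0.33 on day 3 and between 0.35 and 0.45 on day 7. It lay between 0.41 and 0.57 on day 14 and was 0.79, 0.63 and 0.27 in the day 21 libraries, so that every later DMSO library lay above the day 0 libraries. TYR had a mean of 151 ± 7.61 CPM (SD, n = 3) on day 0, of 315 ± 12.7 on day 7, of 318 ± 24.2 on day 14 and of 247 ± 29.4 on day 21. PMEL differed from TYR, with a mean of 3255 ± 124 CPM on day 0, of 5331 ± 1065 on day 3, of 3844 ± 206 on day 7, of 2886 ± 237 on day 14 and of 6894 ± 471 on day 21. SPP1 had its highest DMSO mean at day 14, 15.6 CPM against 0.172 at day 0 and 2.37 at day 21. These levels are descriptions, and no test was run between the days in between.

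**Figure D5:**
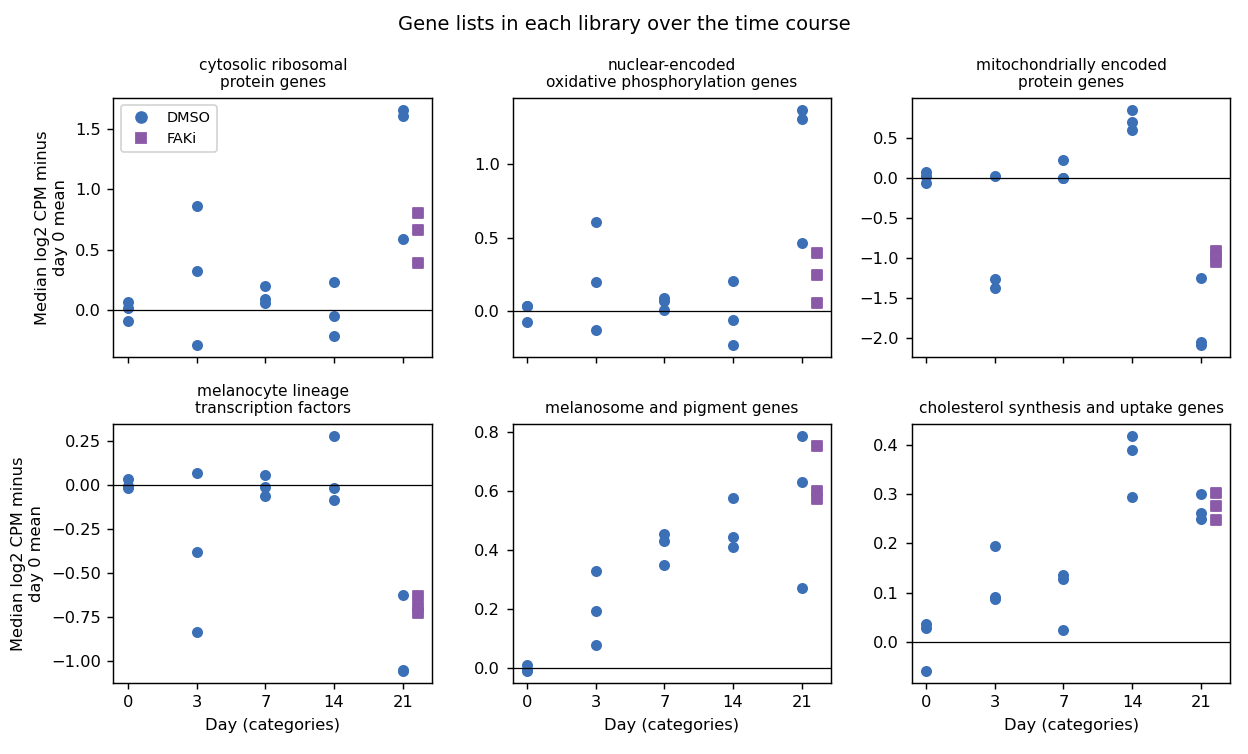
Median over list members of log2 CPM minus the day 0 mean, by day, for 6 gene lists, with blue circles for DMSO libraries and purple squares for FAKi libraries of day 21, 1 point per library. Ribosomal, oxidative phosphorylation, mitochondrial and lineage lists leave 0 in 2 day 3 libraries and at day 21, and pigment genes are above 0 from day 3 on.

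Markers of melanocytes and of other cell types were checked against the label of the line. The 10 melanocyte markers summed to between 10200 and 10500 CPM at day 0 and between 12000 and 13900 CPM at day 21, and 1 was called, PMEL. Fibroblast markers summed to between 10.5 and 12.1 CPM at day 0 and 7.28 to 11.2 CPM at day 21, with THY1 at 0 counts and 0 of 4 tested members called by edgeR, by DESeq2 or at an unadjusted p under 0.05. The 8 epithelial markers rose in sum from a range of 23.5 to 28.3 CPM to a range of 36.1 to 54.2 CPM, most of it KRT18 at 0.99 without a call, with KRT5 and KRT19 at 0 counts. Of the 5 epithelial markers tested, edgeR and DESeq2 called 0 and 1 had an unadjusted p under 0.05, while KRT8 was called lower with the correction and 1 marker higher without day 21 replicate 3. Of 6 markers of the retinal pigment epithelium, the neighboring tissue, RPE65 was at 0 counts, RLBP1 was called higher (1.03), and BEST1, a chloride channel, made up nearly all of the sum of 1130 to 1190 CPM at day 0 and 1260 to 2590 CPM at day 21 and was called with the correction. Endothelial markers summed to 96.5 to 111 CPM and 81.7 to 99.5 CPM, nearly all from EMCN, and leukocyte markers to 96.4 to 106 CPM and 56.8 to 69.2 CPM, nearly all from CD68, with CD3E and AIF1 at 0 counts. The 1 endothelial marker tested, EMCN, was not called by edgeR or DESeq2 and had no unadjusted p under 0.05. The 2 leukocyte markers tested, CD68 (-0.70) and CD14, which had 1 count over day 0 and 25 over day 21, were not called by edgeR or DESeq2 and both had an unadjusted p under 0.05. CD68 was called lower with the length and GC correction, and CD14 higher without day 21 replicate 3. The part of these markers in the results was not tested.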

How the data were processed

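Messenger RNA of 92.1 cultures was measured in 27 libraries, of which the 3 of DMSO day 0 and the 3 of DMSO day 21 were compared. The authors trimmed reads with Trim Galore, checked them with FastQC 0.11.8, aligned them to hg38 with STAR 2.5.3a and deposited raw read counts per gene, made with HOMER over the exons of 1 GENCODE 39 transcript per gene. The RNA kit keeps strand, and the command in the file header names no strand option. Counts summed to between 12161994 and 40189978 in each of the 6 libraries.

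Counts of all 22259 genes with at least 20 counts over the 6 libraries were scaled by TMM and tested with edgeR 4.0.16 in R 4.3.3 (quasi-likelihood test, two-sided, Benjamini-Hochberg adjustment), and protein-coding rows were read afterwards. A call needs an adjusted p no higher than 0.05 together with a log2 fold change beyond 1 in either direction. Errors are SE of the fit, and CPM are counts divided by TMM-scaled library sizes. DESeq2 1.42.0, which the study used, was an alternative, as were other scalings, filters, thresholds, a replicate block, thinned counts, a length correction (loess, span 0.5) and leaving out each library. The length and GC correction was added after seeing the data. GC content and overlapping exons came from GENCODE 44 and promoters from RefSeq.

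Members and the 55 gene lists were chosen with earlier results of these data known. Named genes are the 12 largest rises and the 12 largest falls among called genes with at least 5 CPM in the higher group and no overlap, the 5 smallest p in each direction, up to 4 called members of each list by smallest p, PTK2, GNAQ and the melanocyte markers. Other list members were named after their values were seen. Separation between the groups was thus a condition of entry for the largest rises and falls. For the other named genes it is a description, and the share of separate genes over all genes is not given. Most of these were named because they were called, which favors separate groups. The test was checked on simulated counts with 200 changed genes. Plots were drawn with Python 3.11.15 and matplotlib 3.10.9.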

Additional observations from a re-analysis of the deposited data

Results flagged for a closer look

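Rows outside the protein-coding set also carried a signal. Of 2287 processed pseudogene rows tested, 841 were called higher and 270 lower at day 21, with a median log2 fold change of 0.79. Among 415 of them named after ribosomal protein genes, 277 were called higher and 6 lower, with a median of 2.10. The part of reads shared with the parent genes was not tested.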

How the results depend on the processing

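Counts of calls were sensitive to the fold threshold, to transcript length and to single libraries. At an adjusted p alone there were 3433 genes higher and 3483 lower, and at an adjusted p of at most 0.01 the lower count was 809. The length correction gave 853 and 635, and with a replicate block 745 and 676. The length and GC correction gave 667 and 578, and with a replicate block 604 and 622. The cause was not tested. Leaving out 1 library gave between 987 and 2032 genes higher and between 776 and 2258 lower, with 776 lower without day 21 replicate 1, 861 without replicate 2 and 2258 without replicate 3. DESeq2 (1322 and 1356), RLE scaling (1332 and 1345), upper quartile scaling, other filters, thinned counts and all 27 libraries in 1 fit stayed within 1.5 times. A replicate block gave 1232 and 1420. Same-numbered libraries deviated together with r of -0.0193, 0.146 and 0.193, and day 0 replicates 1 and 2 correlated best with another number. With 3 libraries per group and day 21 replicate 3 apart from its group, these r cannot settle whether the numbers pair the libraries. Of the 174 named genes, 173 kept their direction and side of the threshold without day 21 replicate 3. Most were named because they were called, and this day 21 library lay nearest to day 0, so its omission was apt to keep them. Without day 21 replicate 1, 132 kept both and 40 lost their call, and without replicate 2, 137 and 35. The counts that lost their call were 33, 19 and 35 without day 0 replicates 1, 2 and 3. With the length and GC correction 87 kept both, while 83 lost their call and 3 reversed. GNAQ was at 0.26 with the length correction, with and without the block, and at 0.42 with the length and GC correction, with and without the block. S100A1 was at -0.097 with the length and GC correction and -0.14 with its block. S100B was at -0.037 and, with the block, -0.069 under the length correction, and at -0.062 and -0.094 under the length and GC correction. The day 0 libraries were the shallowest of the 6, which limits low genes most.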

Other observations

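Mitochondrial rows other than protein-coding ones did not follow them. Of 21 mitochondrial tRNA rows tested, 10 were called higher and none lower, with a median log2 fold change of 1.12. The 2 mitochondrial rRNA rows had a median of 0.21, and edgeR called none of them.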
